A study of Mus musculus with 6 samples.

Results

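The genes described here encode the synaptic vesicle cycle and the scaffolds on either side of a synapse. They are a list of 36 genes named by symbol. The rule uses no measured value, although the list was drawn up with earlier results of these data known. All 36 were found among the 40413 genes of the table. They fall into 14 synaptic vesicle proteins, 6 genes of the fusion machinery, 7 of the active zone and presynaptic adhesion, and 9 of postsynaptic adhesion and scaffold. RNA was sequenced from N2A-A5 cells, a derivative of the mouse neuroblastoma line Neuro-2a that the labels call acceptor cells. The 3 libraries at 0 h came from undifferentiated cells with no differentiation treatment, grown in 10% fetal bovine serum with 10 µg/mL of the selection antibiotic blasticidin. The 3 libraries at 96 h came from cells differentiated over 96 h with 10 µM retinoic acid, the serum cut to 1% and blasticidin left out. Serum, retinoic acid, blasticidin and time in culture changed together and cannot be told apart. The labels do not say whether N2A-A5 is a single clone, and they name the replicates of each state as biological without saying how the cultures were separated.

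Neurons store transmitter in small vesicles that dock at the active zone, are primed there and fuse with the membrane when calcium enters. Synaptotagmins on the vesicle sense the calcium. The SNARE proteins (a vesicle synaptobrevin with syntaxin and SNAP-25 on the membrane) form the complex that drives fusion, and complexins hold and release it. Neurexins on the axon bind neuroligins on the receiving cell, where PSD-95 family proteins, Shanks and Homers build the scaffold that anchors receptors. Neuroblastoma lines express part of this machinery without forming mature synapses.

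The 6 libraries held between 16.8 and 20.9 M counts. The unit M stands for mega. Values are in CPM, counts per M of the library total, with totals scaled by TMM factors, which correct for differences in library makeup. Groups were compared with edgeR's quasi-likelihood F test over 13705 genes, and a gene was called higher or lower at 96 h where the Benjamini-Hochberg adjusted p was under 0.05. The predicted gene Gm26917 took 18.7% to 22.7% of counts at 0 h and 28.7% to 31.7% at 96 h, and its part in the results was not tested. Library size alone, without TMM factors, shifted the typical log2 fold change of the tested genes by -0.25 (median), and each direction below is on the TMM scale. Sympathetic neuroblast and neuron markers (10 genes) summed to 1120 to 1140 CPM at 0 h and 859 to 885 CPM at 96 h, with 6 lower and 1 higher. Th, the enzyme that starts catecholamine synthesis, stayed under 1 CPM in both means. Dbh, another marker of this list, fell from a mean of 4.18 to 0.445 CPM. Markers of other cells were low. Fibroblast markers (5 genes, Lum at 0 in all libraries, Dcn and Pdgfra higher) summed to 4.28 to 4.77 CPM at 0 h and 10.5 to 12.2 CPM at 96 h. Oligodendrocyte (Mag and Olig2 at 0 throughout), Schwann cell (Pmp2 at 0), astrocyte (Aqp4 and Slc1a3 at 0), macrophage (Aif1 at 0) and endothelial markers (Cldn5 at 0) summed to at most 8.36 CPM in any library, and the part of these markers in the results was not tested. The Schwann cell marker Egr2 (means 3.62 and 0.836 CPM) and the astrocyte marker Aldh1l1 (1.82 and 0.312 CPM) were lower at 96 h. The oligodendrocyte marker Mbp (6.78 and 5.42 CPM) was not called.

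Of the 36 genes, 29 had enough counts to be tested, and 21 of these changed, 13 higher and 8 lower at 96 h. That is 72.4% of those tested. Over all 13705 genes 57.4% were called, 28.7% higher and 28.8% lower; the share was 59.2% among protein-coding genes and 65.6% among genes of mean 5 CPM or more. The same limit of 5 CPM left 27 of the synaptic genes, of which 77.8% were called. The median log2 fold change was 0.01 over the 29 genes and 0.03 over all genes tested. By at least 1.5-fold, 6 were higher (18.6% of all genes) and 5 lower (11.3%). The libraries of the states did not overlap for 12 genes that were higher (32.4% of all genes) and 8 that were lower (31.7%). With library size alone the split of 13 higher and 8 lower became 7 and 13, against 17.6% higher and 42.7% lower over all genes, and the 7 were Syp, Syt4, Syt5, Unc13a, Dlg2, Nlgn2 and Shank1. In bulk samples, fewer cells that express a gene and less RNA per cell cannot be told apart.

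**Figure D1:**
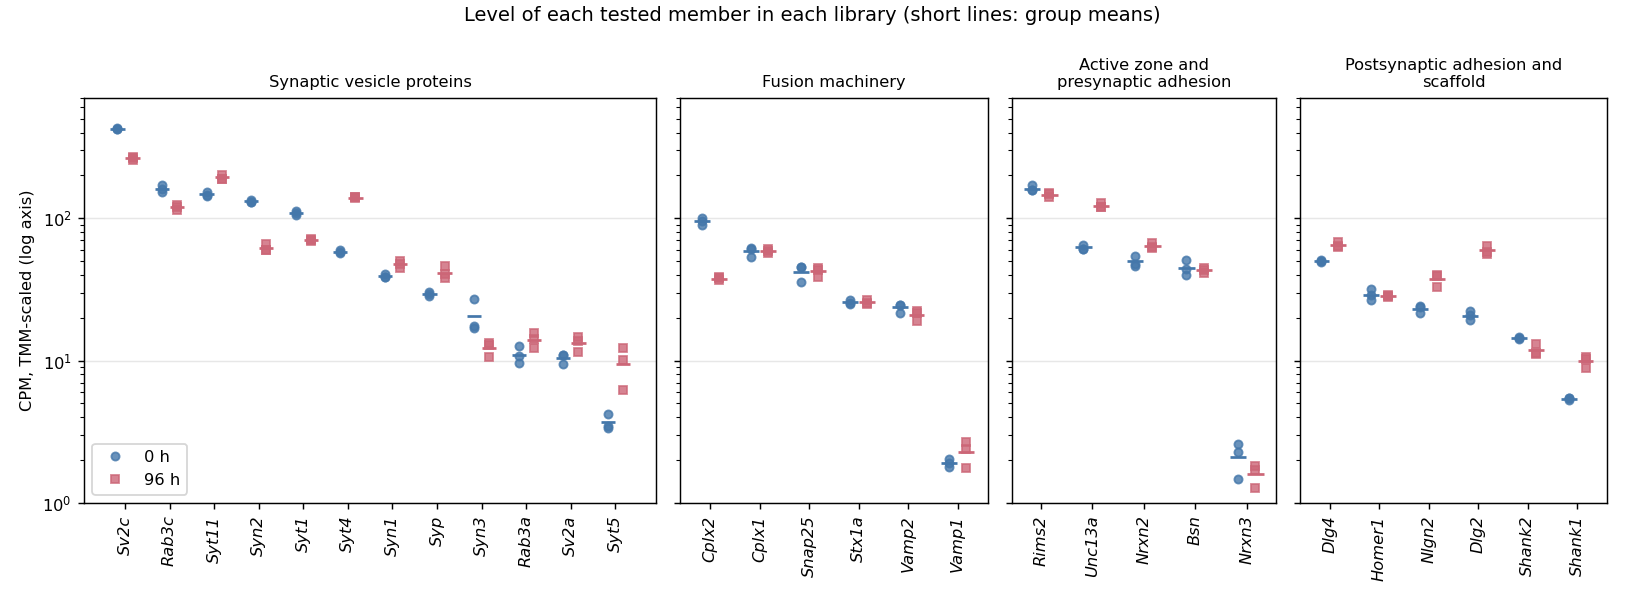
Level of each of the 29 tested genes in each library, in TMM-scaled CPM on a log axis, by role. Circles are the 3 libraries at 0 h, squares the 3 at 96 h and short lines the group means; Cplx2 and Syn2 separate downward and Syt4, Dlg2 and Unc13a upward, while the 2 sets of points for Snap25 and Stx1a lie on each other.

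Summed over a role, levels were lower at 96 h for vesicle and fusion genes and higher for postsynaptic genes, and for active zone genes the direction depended on the scaling. Vesicle protein genes summed to 1140, 1160 and 1140 CPM at 0 h and 1000, 980 and 981 CPM at 96 h. The fusion genes summed to 239, 258 and 244 CPM and then 182, 187 and 194 CPM. The active zone group summed to 325, 314 and 324 CPM at 0 h and 379, 378 and 375 CPM at 96 h. Postsynaptic genes summed to 142, 140 and 147 CPM and then 216, 221 and 204 CPM. In none of the 4 roles did the TMM-scaled sums of the 2 states overlap. With library size alone the active zone sums were 356, 352 and 341 CPM at 0 h and 338, 340 and 358 CPM at 96 h and did overlap, while the other 3 roles kept their order without overlap. All 36 genes together came to 1840, 1870 and 1850 CPM at 0 h and 1780, 1770 and 1750 CPM at 96 h. Without TMM scaling the 36 genes took 0.195% to 0.210% of counts at 0 h and 0.158% to 0.167% at 96 h. A few abundant genes weigh most in such sums, and Sv2c alone held 22.8% to 22.9% of the counts of the 36 genes at 0 h and 14.6% to 15.3% at 96 h. In means, Sv2c went from 424 to 264 CPM, Cplx2 from 94.9 to 37.6 CPM and Unc13a from 62.3 to 122 CPM. Each change was about as large as that of the sum of its role. The vesicle, fusion and active zone sums therefore do not show that a role moved as a whole. Of 6 tested postsynaptic genes 4 were higher, with Dlg2 going from 20.7 to 59.4 CPM in means. Homer1 (29.0 and 28.2 CPM) was not called and Shank2 (14.4 and 11.8 CPM) was lower, so this role did not move as a whole either.

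Promoter sequences were available for 26 of the 36 genes (RefSeq, GRCm38.p6, a build earlier than that of the counts, 250 bases before to 50 after each annotated start, 40 windows). Shown are the 250 bases before the start for both complexins and for synapsins 1 and 2, 2 paralog pairs whose levels parted in the results that follow. They are written 5′ to 3′ on the gene's strand, with matches to searched motifs in capitals. Syn2 has a second annotated start, at chr6:115238744-115238993, that is not printed.
Syn1 (chrX:20920919-20921168, minus strand): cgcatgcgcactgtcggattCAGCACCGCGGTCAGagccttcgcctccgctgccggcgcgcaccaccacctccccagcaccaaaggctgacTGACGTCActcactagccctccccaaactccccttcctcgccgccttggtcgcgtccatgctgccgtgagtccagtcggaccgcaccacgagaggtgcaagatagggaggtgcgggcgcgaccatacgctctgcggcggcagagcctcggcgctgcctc
Syn2 (chr6:115134652-115134901, plus strand): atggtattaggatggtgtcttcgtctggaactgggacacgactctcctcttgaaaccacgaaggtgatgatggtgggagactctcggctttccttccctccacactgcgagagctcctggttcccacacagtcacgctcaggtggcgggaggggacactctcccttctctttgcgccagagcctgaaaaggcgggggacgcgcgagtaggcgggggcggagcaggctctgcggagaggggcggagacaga
Cplx1 (chr5:108550028-108550277, minus strand): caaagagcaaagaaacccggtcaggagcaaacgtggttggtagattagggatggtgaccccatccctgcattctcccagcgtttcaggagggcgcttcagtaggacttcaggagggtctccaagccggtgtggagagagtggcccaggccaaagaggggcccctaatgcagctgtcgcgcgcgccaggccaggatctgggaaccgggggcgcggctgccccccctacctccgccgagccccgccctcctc
Cplx2 (chr13:54302306-54302555, plus strand): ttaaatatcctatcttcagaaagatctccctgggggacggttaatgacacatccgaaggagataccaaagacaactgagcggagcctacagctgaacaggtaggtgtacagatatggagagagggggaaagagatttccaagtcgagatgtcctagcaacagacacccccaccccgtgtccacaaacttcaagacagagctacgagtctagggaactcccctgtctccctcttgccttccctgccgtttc

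The motifs were searched on both strands: the core of the RE1 element (CAGCACC, 2 free bases, GGACAG, with up to 2 mismatches), bound by the repressor REST, the cAMP response element TGACGTCA (no mismatch), and a DR5 retinoic acid response element (AGGTCA repeated after 5 free bases, up to 1 mismatch). Syn1 was the only one of the 26 genes with a match to the first or the second. Its RE1 match, with 1 mismatch, starts 230 bases before the annotated start, and its cAMP response element, which reads the same on both strands, 159 bases before. The matches do not overlap. Over all 32851 windows 1.92% held the RE1 core and 1.79% the cAMP response element. Counted by gene, the shares were 2.22% and 2.03% of 27025 genes, beside 3.85% of the 26 genes for each motif. That share of the 26 is Syn1 alone, and no test was run. No window of the 26 genes held the DR5 motif, against 0.262% of all windows, which says only that these letters were not in these windows. In the printed stretches GC content was 68.0% for Syn1, 61.2% for Syn2, 64.8% for Cplx1 and 50.8% for Cplx2. Rest itself had means of 9.20 CPM at 0 h and 6.70 CPM at 96 h, a fall of 0.46 on the log2 scale (SE 0.15, edgeR adjusted p = 0.0194). A link between Rest, the RE1 match and the level of Syn1 was not tested.

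All tested vesicle protein genes passed the test on the TMM scale, in both directions. Of 12 tested genes 7 rose and 5 fell (3 and 5 with library size alone). Over all genes 28.7% were higher and 28.8% lower, and 65.6% of genes of mean 5 CPM or more were called. The synapsins, synaptotagmins, SV2 proteins and Rab3 proteins each had a member that rose and one that fell, of which library size alone kept both only for the synaptotagmins. Per kilobase of RNA, Syn2, Sv2c and Rab3c stood above the relatives that rose, in the means of both states. Synaptophysin, an abundant vesicle membrane protein in neurons, rose 1.41-fold (Syp, 29.3 ± 0.95 to 41.4 ± 4.1 CPM, mean ± SD, n = 3 libraries as for all means here, edgeR adjusted p = 9.77e-05).

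Synapsins tether vesicles to each other and to the cytoskeleton. Syn2 was measured at 134, 130 and 130 CPM at 0 h and at 65.7, 59.3 and 59.9 CPM at 96 h. It fell by 1.09 on the log2 scale (SE 0.06, edgeR adjusted p = 1.90e-09), and no library at 96 h came near the 0 h values. Syn3 stood at 16.8, 17.6 and 27.0 CPM and then at 13.3, 12.9 and 10.5 CPM. It also fell (log2 fold change -0.74 ± 0.17, edgeR adjusted p = 0.00160); its 0 h replicate 3 was above both others, and without that library the log2 fold change was -0.51. Syn1 rose by 1.21-fold, from 39.3 ± 1.1 to 47.5 ± 2.4 CPM (edgeR adjusted p = 0.00236), a call that library size alone ended (log2 fold change 0.02, adjusted p = 0.848). Syn2 and Syn3 share exon bases with Timp4 and Timp3 on the opposite strand (90 and 1733 bases in GENCODE M21). Timp4 had 6 and 2 counts and Timp3 had 3 and 10 counts over the groups. The part of these overlaps in the falls was not tested.

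Among the synaptotagmins, Syt1, the main fast calcium sensor for release, fell while 3 relatives rose. Syt1 read 113, 109 and 106 CPM at 0 h and 71.5, 68.6 and 70.7 CPM at 96 h (log2 fold change -0.64 ± 0.05, edgeR adjusted p = 1.76e-07). Syt4, a synaptotagmin of dense-core and Golgi-derived vesicles that does not bind calcium in the usual way, read 57.0, 59.6 and 58.1 CPM and then 140, 139 and 140 CPM. Its rise of 2.40-fold (edgeR adjusted p = 1.73e-10) turned the order of the pair: per kilobase of RNA, Syt4 had 15.0 and Syt1 had 22.7 CPM at 0 h, and 35.9 and 14.6 CPM at 96 h. Syt5, which is found on dense-core vesicles, read 3.36, 3.49 and 4.18 CPM and then 10.1, 6.20 and 12.2 CPM. It rose 2.59-fold (edgeR adjusted p = 2.03e-04), with 96 h replicate 2 well below the other 96 h libraries but above every 0 h library. Syt11, another synaptotagmin without calcium binding, rose 1.31-fold from 147 ± 5.3 to 193 ± 6.8 CPM (edgeR adjusted p = 1.02e-05), and did not pass with library size alone (log2 fold change 0.14, adjusted p = 0.0742).

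SV2 proteins are glycoproteins of vesicle membranes that bind synaptotagmin. Sv2c, the gene with the highest level per kilobase of the 36 at 0 h, read 422, 427 and 424 CPM at 0 h and 271, 265 and 257 CPM at 96 h. It fell by 0.68 on the log2 scale (SE 0.04, edgeR adjusted p = 8.97e-09), a change of -37.7%. Sv2a, the form present in most neurons, had 10.4 ± 0.85 and 13.3 ± 1.6 CPM, a rise of 1.28-fold with an edgeR adjusted p of 0.0304. That call rested on single libraries: the adjusted p was 0.123 without 0 h replicate 2, 0.137 without 96 h replicate 1 and 0.0926 without 96 h replicate 3, and 0.525 with library size alone. It was 0.0649 with no filter and 0.11 with DESeq2.

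Rab3 proteins are the GTPases that bring vesicles to the active zone. Rab3c had 161 ± 8.5 and 119 ± 4.6 CPM, and fell by 0.44 on the log2 scale (SE 0.05, edgeR adjusted p = 9.33e-06). Rab3a had 11 ± 1.5 and 14.0 ± 1.6 CPM, with libraries that overlapped between the states. It passed narrowly at 1.27-fold higher (edgeR adjusted p = 0.0417), and missed the threshold with library size alone (0.617), no filter (0.0705), DESeq2 (0.126) and limma-voom (0.051). Leaving out replicate 1 or 3 at 0 h gave an edgeR adjusted p of 0.157 or 0.1, and leaving out replicate 1 or 2 at 96 h gave 0.177 or 0.0922.

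In the fusion machinery the complexin gene Cplx2 fell, the 1 call among 6 genes on the TMM scale (4 lower with library size alone). The share called over all genes was 57.4%. Cplx2 read 90, 99.6 and 95.2 CPM at 0 h and 37.9, 36.5 and 38.4 CPM at 96 h, a fall of 1.34 on the log2 scale (SE 0.06, edgeR adjusted p = 6.51e-10). Its paralog Cplx1 read 53.6, 61.2 and 61.4 CPM and then 58.7, 57.0 and 60.6 CPM, within the same range. The log2 fold change of Cplx1 was 0.00 with a 95% interval from -0.14 to 0.14, so that changes from 0.906-fold to 1.10-fold remain possible. The membrane SNAREs gave similar intervals. Snap25 had 42.1 ± 5.6 and 42.3 ± 3.2 CPM (95% interval 0.875-fold to 1.15-fold), and Stx1a, syntaxin 1A, had 25.7 ± 0.95 and 25.6 ± 0.86 CPM (0.893-fold to 1.11-fold). Vamp2, the main vesicle SNARE of the brain, had 23.6 ± 1.6 and 21.0 ± 1.7 CPM (0.778-fold to 1.01-fold, edgeR adjusted p = 0.118). Vamp1 stayed near 2 CPM with the widest interval (0.765-fold to 1.84-fold). With library size alone Cplx1, Stx1a and Vamp2 were also called lower (log2 fold changes -0.25, -0.25 and -0.42, adjusted p = 0.0126, 0.0246 and 0.00238), and Snap25 was not (-0.25, 0.0645).

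**Figure D2:**
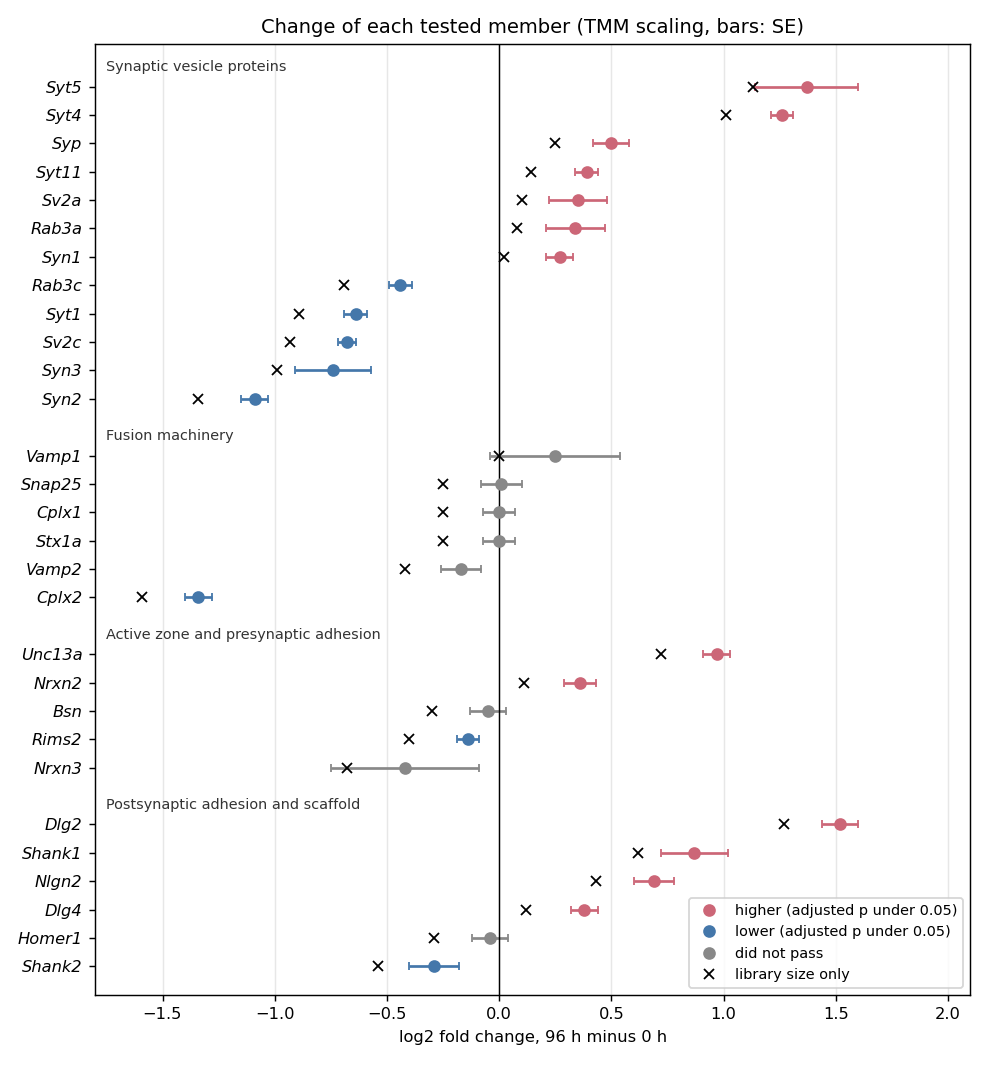
Log2 fold change of each tested gene, 96 h minus 0 h, with its standard error under TMM scaling, coloured by call; crosses give the value with library size alone. The crosses lie to the left of the points by about the same amount throughout, and Dlg2 (1.52) and Cplx2 (-1.34) mark the ends of the range.

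At the active zone, the vesicle-priming factor Munc13-1 stood out. Its gene Unc13a read 65.1, 61.2 and 60.7 CPM at 0 h and 119, 119 and 128 CPM at 96 h, a rise of 1.95-fold (log2 fold change 0.97 ± 0.06, edgeR adjusted p = 5.82e-09). It shares 495 exon bases with Colgalt1 on the opposite strand, and Colgalt1 had a log2 fold change of -0.37 ± 0.07. The overlap's part in the rise was not tested. Other genes that rose also share exon bases with a gene on the opposite strand. Among them were Syp (875 bases with Gm14703), Nrxn2 (682 with Slc22a12), Syt4 (566 with Gm26658) and Shank1 (339 with 1700008O03Rik). The part of these overlaps was not tested either. Rims2, an organiser of the release site that binds Rab3 and Munc13, read 170, 158 and 157 CPM and then 150, 148 and 141 CPM. The groups did not overlap, but the fall was only 0.14 on the log2 scale (edgeR adjusted p = 0.0240), and it did not pass with upper-quartile factors (0.299) or without 0 h replicate 1 (0.0981) or 96 h replicate 3 (0.0755). Bsn, the large scaffold bassoon, had 44.9 ± 5.3 and 43.3 ± 1.7 CPM and did not pass (95% interval 0.854-fold to 1.09-fold). With library size alone Bsn was called lower (log2 fold change -0.30, adjusted p = 0.00581). Of the neurexins, Nrxn2 rose 1.29-fold from 49.6 ± 4.3 to 63.9 ± 2.7 CPM (edgeR adjusted p = 4.85e-04, and 0.185 with library size alone). Nrxn3 had 2.11 ± 0.58 and 1.59 ± 0.27 CPM and did not pass (0.458-fold to 1.22-fold). In all, 2 of 5 tested genes rose and 1 fell (1 and 2 with library size alone), beside 28.7% higher and 28.8% lower over all genes.

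In the postsynaptic group 4 of 6 tested genes rose and 1 fell (3 and 2 with library size alone, 4 and 0 with upper-quartile factors). Over all genes 28.7% were higher and 28.8% lower. The list of further synaptic genes given below held 8 tested postsynaptic genes, 3 higher and 4 lower, with a median log2 fold change of -0.05. Dlg2, which encodes the PSD-95 relative PSD-93, read 22.1, 19.2 and 20.8 CPM at 0 h and 56.3, 63.9 and 58.0 CPM at 96 h. Its rise of 2.88-fold (log2 fold change 1.52 ± 0.08, edgeR adjusted p = 1.62e-09) was the largest among the 29 genes. Dlg4, PSD-95 itself, rose 1.30-fold from 50.0 ± 0.70 to 64.9 ± 2.4 CPM (edgeR adjusted p = 7.15e-05, and 0.129 with library size alone). Nlgn2, the neuroligin of inhibitory synapses, read 24.0, 21.5 and 23.9 CPM and then 39.7, 39.3 and 32.9 CPM, 1.61-fold higher (edgeR adjusted p = 1.34e-05). All of its 96 h libraries lay above those at 0 h, replicate 3 by the least.

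The Shank genes, whose proteins link receptor complexes to the actin cytoskeleton, did not move together. Shank1 read 5.32, 5.41 and 5.43 CPM at 0 h and 10.3, 10.5 and 8.91 CPM at 96 h, a rise of 1.83-fold (edgeR adjusted p = 2.36e-04). Shank2 read 14.3, 14.1 and 14.7 CPM and then 11.1, 13.1 and 11.2 CPM. It passed narrowly as lower (log2 fold change -0.29 ± 0.11, edgeR adjusted p = 0.0388). It no longer passed when 0 h replicate 1 (0.0649), 2 (0.0633) or 3 (0.0724) or 96 h replicate 1 (0.11) or 3 (0.106) was left out, nor with at least 1 CPM in 3 libraries (0.0521), with DESeq2 (0.0807), with upper-quartile factors (0.130) or with the replicate number as a block (0.0519). Homer1, which cross-links Shank to glutamate receptors, had 29.0 ± 2.6 and 28.2 ± 0.46 CPM and did not pass (95% interval 0.864-fold to 1.10-fold), although library size alone made it lower (log2 fold change -0.29, adjusted p = 0.00802).

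The 7 genes left out by the low-count filter were all scarce. Shank3 had 1, 8 and 1 counts at 0 h and 23, 29 and 10 counts at 96 h, a ratio of 7.67 with a 95% interval of 3.91 to 16.8 (exact conditional binomial, counting error only). Without the filter Shank3 passed (log2 fold change 2.92, edgeR adjusted p = 7.04e-05), and with DESeq2 as well (adjusted p = 0.00114). The size rested on 1 library: 0 h replicate 2 held 8 of the 10 counts, and without it the log2 fold change was 4.41. In that run each 0 h library left had 1 count of Shank3, and the gene passed the low-count filter that removed it from the main fit. Shank3 shares 271 exon bases with Gm15609, which had 10 and 32 counts. Nlgn1, the neuroligin of excitatory synapses, had 4 counts at 0 h and 10 at 96 h over the 3 libraries, and Nlgn3 had 14 and 23. Rims1 had 1 and 6 counts (ratio 7.43, interval 0.901 to 342), and Rab3b had 1 and 5 (ratio 6.19, interval 0.692 to 293). Sv2b had 14 and 17 counts and Pclo, the scaffold piccolo, had 11 and 12. Apart from Shank3, none of the 7 passed without the filter (edgeR adjusted p = 0.336 to 0.842), and changes were not detectable at this depth.

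Ratios of paralogs within a library do not depend on how libraries are scaled. The length of each RNA cancels in their change if a gene uses the same transcripts in both states, which was not examined. Every pair of tested genes within a family was compared, 16 pairs in all. In 12 pairs the libraries of the 2 states did not overlap (of single genes, 64.1% of all tested and 20 of the 29 did not overlap). An exact two-sided permutation test of 3 libraries against 3 cannot go below 0.1; these 12 pairs had p = 0.1, or 0.133 adjusted over the 16 pairs, so no pair could pass at 0.05.

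Both complexin groups varied little. The log2 ratio of Cplx1 to Cplx2 counts was -0.75, -0.70 and -0.63 at 0 h and 0.63, 0.64 and 0.66 at 96 h, a 2.53-fold shift of the ratio towards Cplx1. Syn1 over Syn2 went from -1.78, -1.69 and -1.74 to -0.55, -0.25 and -0.33, a 2.57-fold shift. For Syt1 over Syt4 the values were 0.99, 0.87 and 0.86 and then -0.97, -1.01 and -0.99, a 3.73-fold shift towards Syt4. The other shifts between states without overlap were 2.21-fold towards Dlg2 from Dlg4, 2.23-fold towards Shank1 from Shank2, 2.04-fold towards Sv2a from Sv2c and 1.72-fold towards Rab3a from Rab3c. Within the synaptotagmins and synapsins they also included Syt1 against Syt5 and Syt11 (3.87-fold and 2.04-fold away from Syt1), Syt4 and Syt5 against Syt11 (1.83-fold and 1.90-fold away from Syt11) and Syn1 against Syn3 (1.98-fold). The ratios of Syn2 to Syn3, Syt4 to Syt5, Vamp1 to Vamp2 and Nrxn2 to Nrxn3 overlapped between the states (exact permutation p = 0.2 to 0.9).

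**Figure D3:**
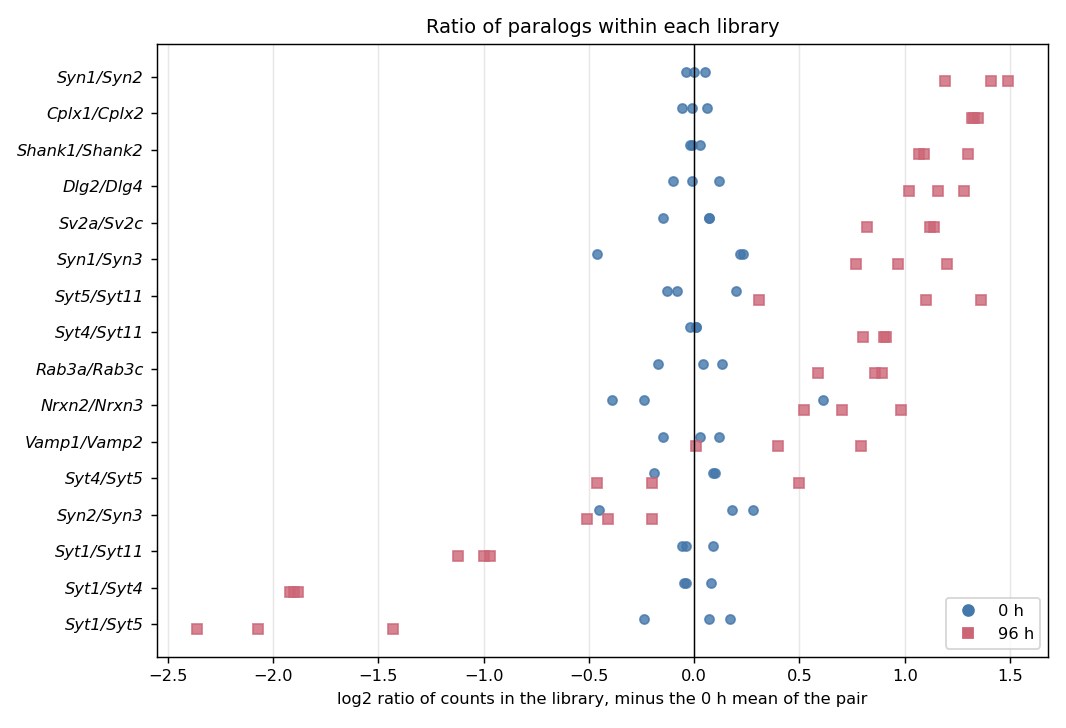
Log2 ratio of the counts of 2 paralogs in each library, minus the mean of that pair at 0 h, for the 16 pairs; circles are 0 h libraries and squares 96 h libraries. Squares lie clear of the circles in 12 pairs, with Syt1/Syt4 (a change of -1.90) and Cplx1/Cplx2 (1.34) showing little scatter within a state.

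Levels of different genes were set side by side per kilobase of the longest coding transcript in GENCODE M21 (CPM per kb), whichever transcripts the cells used. At 0 h the highest were Sv2c at 46.6 ± 0.26, Syn2 at 34.0 ± 0.54, Rims2 at 33.7 ± 1.5, Syt11 at 29.4 ± 1.1 and Cplx1 at 26.8 ± 2.0 CPM per kb. Syn2 and Rims2 differed by less than the spread of Rims2. At 96 h the order was Syt11 at 38.5 ± 1.4, Syt4 at 35.9 ± 0.25, Rims2 at 30.5 ± 1.0, Sv2c at 29.0 ± 0.78 and Cplx1 at 26.8 ± 0.82 CPM per kb. Syt4 moved from rank 10 to rank 2 of the 36 genes and Cplx2 from rank 8 to rank 18. Snap25 had rank 7 at 0 h with 19.9 ± 2.6 CPM per kb and rank 6 at 96 h with 20.0 ± 1.5. Shank1 had 0.548 and 1.01 CPM per kb and Shank2 had 1.60 and 1.31, below each of the 12 tested vesicle genes in both means, of which Syt5 was nearest at 0 h (2.1).

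**Figure D4:**
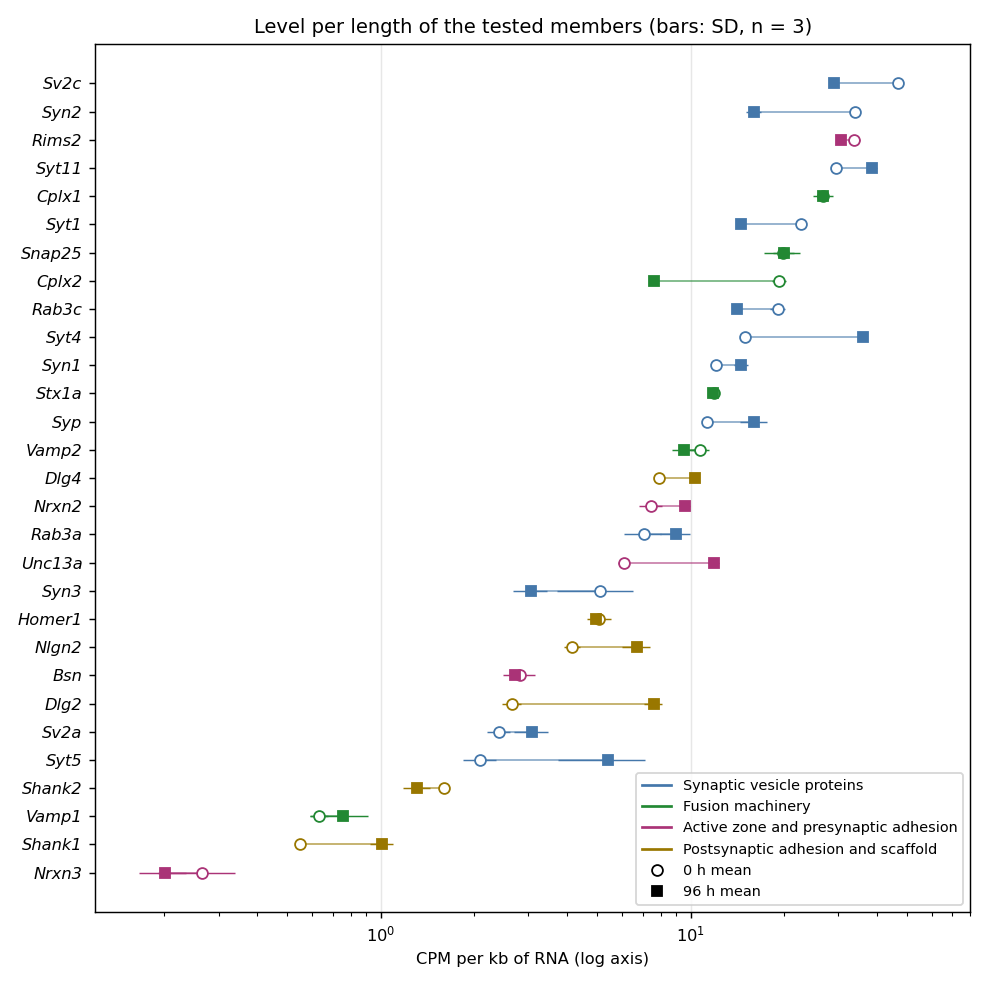
Mean level per kilobase of RNA of the 29 tested genes at 0 h (open circles) and 96 h (filled squares), on a log axis with SD over 3 libraries, ordered by the 0 h level and coloured by role. Sv2c and Syn2 lead at 0 h (46.6 and 34.0 CPM per kb), and Syt11 and Syt4 lead at 96 h (38.5 and 35.9).

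Further genes of the same machinery (a list of 78, 50 of them tested) had 15 higher and 22 lower (9 and 26 with library size alone) and a median log2 fold change of -0.04, beside 28.7% higher and 28.8% lower over all genes. The difference from the 13 higher and 8 lower of the 29 genes was not tested. Syt7, a slow, high-affinity calcium sensor, had means of 26.6 CPM at 0 h and 116 CPM at 96 h (4.36-fold higher, edgeR adjusted p = 5.05e-11), a larger fold than that of any of the 29 genes. Syngr1, a vesicle membrane protein, rose 1.81-fold (log2 fold change 0.85 ± 0.06), Napb, a SNAP adaptor that helps take SNARE complexes apart, rose 1.66-fold, and Itsn1, an endocytic scaffold, rose 1.45-fold. The fall was largest for Dnm3, a dynamin that cuts vesicles from the membrane, with means of 13.1 and 2.31 CPM (-2.49 ± 0.20 on the log2 scale, edgeR adjusted p = 1.23e-07). Erc1, an active zone scaffold (-0.96 ± 0.05), Synj1, the lipid phosphatase that uncoats vesicles (-0.72 ± 0.07), and Nsf, the ATPase that separates SNARE complexes (-0.56 ± 0.06), also fell.

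Of 12 tested vesicle endocytosis genes in that list, 8 were lower and 1, Itsn1, was higher, beside 28.8% lower over all genes (42.7% with library size alone). No test set this group against the others. They included, chosen after their values were seen, 4 of the 5 subunit genes of the AP2 clathrin adaptor, Ap2a1 (-0.24 ± 0.05), Ap2a2 (-0.36 ± 0.05), Ap2b1 (-0.42 ± 0.05) and Ap2s1 (-0.43 ± 0.08), while Ap2m1 did not pass (-0.04 ± 0.04). The transporters that fill vesicles with glutamate or GABA, named here after their values were seen, were close to 0: Slc17a6 had 0 counts at 0 h and 2 at 96 h, Slc17a7 had 14 and 22 and Slc32a1 had 13 and 5.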

How the data were processed

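The authors deposited a table of raw estimated counts for 40413 genes, some of them fractional. The mouse build mm39 and the tools Salmon 1.10.1, DESeq2 1.52.0 and FastQC 0.12.1 are named per the submitters' processing notes. What each tool did, the annotation and the strand setting were not given in the sources used. Per the labels' protocols, ribosomal RNA was depleted and a stranded total RNA kit was used.

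Counts were rounded to whole numbers. The edgeR 4.0.16 filter for low counts, filterByExpr (R 4.3.3), left 13705 genes, among them 29 of the 36 described. TMM factors scaled the libraries, p-values of the quasi-likelihood F test were adjusted over all 13705 genes, and the procedure was tested on simulated data. The standard error is the log2 fold change divided by the square root of F. The depth was 16.8 to 20.9 M counts per library. Intervals for low counts hold counting error alone. Libraries of a state never agreed within sampling noise (chi-square per degree of freedom 6.32 to 12.9). The edgeR p-values set the difference between the states against the spread between these libraries.

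The genes and lists were chosen with earlier results of these data known. Values by library are given for genes called with at least a 1.5-fold change, for the smallest adjusted p in each direction within a role, and as counts for genes removed by the filter; of the further synaptic genes, the 4 higher and 4 lower with the smallest adjusted p are named. Exon overlaps and RNA lengths came from GENCODE M21 (GRCm38), matched by symbol for all 36 genes. In that annotation 18 of the 36 share exon bases with another gene, 15 of them on the opposite strand, and without a stated strand setting such reads cannot be told apart; 9 of the 36 had counts off a whole number by over 0.05. Alternatives were DESeq2 1.42.0, limma-voom (limma 3.58.1), other scalings and filters, stricter thresholds, removal of structural RNA genes (Gm26917 among them), a replicate block and leaving out each library.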

Additional observations from a re-analysis of the deposited data

How the results depend on the processing

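The counts of 13 higher and 8 lower genes were within 1.5 times under DESeq2 size factors, upper-quartile factors, no filter, at least 1 CPM in 3 libraries, DESeq2, limma-voom, an adjusted p of 0.01 and removal of structural RNA genes. They became 7 and 13 with library size alone and 4 and 3 in a test against a 1.5-fold change. For the further synaptic genes, 15 higher became 9 with library size alone and 3 against 1.5-fold, and 22 lower became 4 against 1.5-fold. Leaving out 1 library gave 12 to 13 higher and 6 to 8 lower genes, and 14 to 16 and 20 to 22 of the further genes. Of the 13 higher genes 7, and of the 8 lower 6, kept their call in every alternative other than the stricter thresholds. Directions changed only for genes that did not pass: Cplx1 (0 with DESeq2 size factors, -0.25 with library size alone, -0.04 with no filter, -0.03 with DESeq2), Snap25 (-0.25, -0.03 and -0.02 with the last 3 of these), Stx1a (0.08 with upper-quartile factors, 0.02 with at least 1 CPM, 0 without structural RNA), Vamp1 (0 with library size alone), Bsn (0.03) and Homer1 (0.04, both with upper-quartile factors). Leaving out a library gave -0.07 to 0.02 for Cplx1, -0.11 to 0.06 for Snap25, -0.04 to 0.02 for Stx1a, -0.14 to 0.03 for Bsn and -0.11 to 0.02 for Homer1. The cause of these changes was not tested. Replicate numbers did not pair the libraries (correlation of deviations -0.01, 0.01 and 0.00 for numbers 1, 2 and 3), and the replicate block gave 13 higher and 7 lower genes, and 16 and 22 of the further genes. Depth limits the 7 genes removed by the filter.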

Other observations

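Of 22 SNARE, Rab and vesicle protein genes that serve general membrane traffic, all tested, 7 rose and 6 fell, with a median log2 fold change of 0.05. That is 59.1% called, near the 57.4% over all genes. The following were picked after their values were seen. Stx5a, a syntaxin of the Golgi, rose 1.75-fold (log2 fold change 0.81 ± 0.13, edgeR adjusted p = 9.58e-05) and Stx7, a syntaxin of endosomes, rose 1.57-fold. Vamp3, the SNARE of recycling endosomes, fell by 0.56 on the log2 scale (SE 0.08) and Rab11a, a GTPase of the same compartment, fell by 0.50. Snap23, the widely expressed relative of Snap25, fell by 0.34 (SE 0.10, edgeR adjusted p = 0.0135), where Snap25 had a log2 fold change of 0.01 ± 0.09; the difference between them was not tested.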
